A study of Saccharomyces cerevisiae with 222 samples.

Results

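The ATG genes of budding yeast, the family named for autophagy, were compared between growth in rich medium and starvation in sporulation medium (SPM). The values come from 4 RNA-seq experiments on the transcriptional regulator Ume6 in strain SK1. Members were all genes whose symbol was ATG followed by a number, which gave 35 of the 5818 genes listed, and the same SK1 identifiers were used in all 4 tables. Atg6 and Atg24 are listed under other symbols, VPS30 and SNX4, and were counted with the autophagy machinery outside the family. All 35 genes passed the filter on low counts in each experiment. The genes were grouped by role. The Atg1 kinase complex held 5 genes (ATG1, ATG13, ATG17, ATG29 and ATG31). The Atg9 membrane source and lipid transfer held 6 (ATG2, ATG9, ATG18, ATG23, ATG27 and ATG41), and the lipid kinase complex 2 (ATG14 and ATG38). The ubiquitin-like conjugation system held 8 (ATG3, ATG4, ATG5, ATG7, ATG8, ATG10, ATG12 and ATG16). Under selective autophagy 11 were placed (ATG11, ATG19, ATG20, ATG21, ATG26, ATG32, ATG33, ATG34, ATG36, ATG39 and ATG40). The vacuolar group held 3 (ATG15, ATG22 and ATG42).

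In autophagy a double membrane closes around cytoplasm or a chosen cargo and fuses with the vacuole, where the content is degraded and its building blocks are reused. Starvation activates the Atg1 kinase, vesicles carrying the scramblase Atg9 seed the membrane, the lipid kinase Vps34 in complex with Atg14 marks it, and Atg8 is joined to its lipids by the conjugation enzymes. Receptors such as Atg19, Atg32, Atg36, Atg39 and Atg40 tie particular cargoes to Atg8. Yeast sporulates only under starvation, so cells that enter meiosis are also cells in which autophagy is active. Ume6 binds DNA and, with the Sin3-Rpd3 deacetylase, represses early meiotic genes during growth, and ATG8 is among the other genes it is known to repress. During starvation Ime1 binds Ume6, and the complex activates the early meiotic genes.

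In the mitotic experiment haploid MATa cells grew in YPD, and a ume6Δ strain and a wild-type UME6 strain (WT) were sampled once in log phase. A strain carrying UME6-AID-3V5, LexA-ER-B112 and 4xLexO-TIR (Ume6 depletion), in which an auxin-inducible degron removes the protein, was set against the same strain without TIR (control). Both received ß-estradiol at -30 min and auxin at 0 min, and both were sampled from -30 to 120 min. In the meiotic experiment diploids carrying UME6-AID-3V5 and lexA-ER-GAL4AD, with 8xlexO-OsTIR (Ume6 depletion) or without it (control), received ß-estradiol and auxin after 0.5 h in SPM. In both of these strains IME1 and IME4 were driven by the CUP1 promoter and were induced with copper at 2 h, and samples were taken from 0.5 to 6 h. The rescue experiment crossed native IME1 or sfGFP-IME1 with 4 UME6 alleles in diploids at 0, 2, 4 and 6 h in SPM. Of these, 3 strains were compared here: sfGFP-IME1; UME6(T99N)-3V5-aGFP, called the tethered Ime1 strain, IME1; UME6(T99N)-3V5-aGFP, called the untethered Ime1 strain, and IME1; UME6, called the UME6 strain. The paper describes the T99N change as preventing the binding of Ime1, and aGFP is an anti-GFP nanobody that captures sfGFP fusions. In the activation domain experiment all strains carried UME6(T99N)-3V5-aGFP and lacked the endogenous IME1, and the IME1 promoter drove sfGFP-IME1, IME1, sfGFP-B112 or B112, where B112 is an acidic activation domain.

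The series holds 222 libraries in 74 groups of 3, and 220 were used. The counts of the first replicate of IME1; UME6-3V5 at 0 h match the TPM of the first replicate at 2 h and the other way round, so these 2 libraries were left out. The totals ranged from 4322697 to 23448759 estimated counts per library, apart from 1 library of sfGFP-IME1; UME6-3V5 at 4 h with 44189, which is in no group compared. No replicate pair held identical counts. The methods call the replicates biological, while the labels do not name separate cultures, so the p-values measure the spread between these samples.

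The ume6Δ libraries went against their haploid label. Transcripts of the a-cell genes STE2, STE6 and BAR1 summed to 40.5 to 46.2 TPM (the deposited length-normalised share of all transcripts) in ume6Δ, against 780 to 851 TPM in WT. The haploid genes RME1, STE4, GPA1 and FUS3 summed to 28.9 to 36.1 TPM in ume6Δ, against 415 to 465 TPM in WT. In diploid SPM libraries these sums were 16.0 to 45.6 TPM and 39.8 to 145 TPM. All 3 ume6Δ libraries shared this, so mating type or ploidy and the deletion of UME6 cannot be told apart in any ume6Δ value below. UME6 itself was at 0.051 to 0.557 TPM in ume6Δ, against 34.9 to 36.5 TPM in WT. Degradation of the protein leaves the UME6 transcript in place, so the transcript does not check the depletion strains.

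Growth and starvation were first set side by side as levels. The growth set held the 21 WT and control libraries in YPD, and the starvation sets were the control in SPM at 0.5 and 2 h (6 libraries), the UME6 strain at 2 to 6 h (9), the untethered Ime1 strain at 2 to 6 h (9) and the B112 strain at 2 to 6 h (9). All SPM libraries lay above all growth libraries for 28 of the 35 ATG genes in the control and 24 in the UME6 strain. They did so for 26 in the untethered Ime1 strain and 27 in the B112 strain. Beside these stood 28.9%, 20.4%, 22.0% and 21.8% of the 5483 genes that passed the filter on low counts in all 4 experiments. No ATG gene lay wholly below growth in any set, beside 23.5%, 22.2%, 33.1% and 29.3% of all genes. The median log2 ratio of the ATG genes was 2.16, 2.06, 1.87 and 1.80 in the 4 sets, and that of all genes was 0.21, 0.17, -0.13 and -0.07. In all 4 sets 21 ATG genes lay above growth, and 14 overlapped with growth in at least 1 set. No test was made, because medium, ploidy, strain and experiment cannot be told apart between these tables. The study grew the SPM cultures in BYTA, a presporulation medium with acetate, before the transfer. They therefore did not pass from log phase in YPD straight into SPM, and the starvation sets hold no library from 0 h. In bulk RNA a change in the share of cells that express a gene and a change in RNA per cell cannot be told apart.

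The genes farthest from growth were receptors and ATG8. ATG39, the receptor for autophagy of the nucleus, was at 411 to 678 TPM (median 551) in the starved control and at 1.78 to 10.4 TPM (median 2.92) in growth, a ratio of 189. ATG8 stood at 541 to 1067 TPM (median 805) in the starved control and at 11.0 to 57.3 TPM (median 25.6) in growth, a ratio of 31.4. ATG34, the paralog of the ATG19 receptor, stood at 265 to 316 TPM in the starved control and at 6.50 to 20.6 TPM in growth, a ratio of 25.6. In none of these 3 genes did any starved library reach down to a growth library, and in the other 3 sets the ratios were 100 to 129 for ATG39, 13.8 to 45.1 for ATG8 and 24.6 to 27.5 for ATG34. ATG33, a mitochondrial protein needed for mitophagy, had a ratio of 23.1, ATG19, the receptor that delivers aminopeptidase I to the vacuole, 17.5, ATG1 15.4 and ATG32, the mitophagy receptor, 10.9. ATG9 was at 56.8 to 79.0 TPM against 7.13 to 18.4 TPM in growth, and ATG14 was at 23.2 to 33.4 TPM against 3.69 to 11.0 TPM in growth, ratios of 6.85 and 4.77.

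By role, all starved control libraries lay above growth for 11 of 11 selective autophagy genes, 3 of 3 vacuolar genes, 2 of 2 genes of the lipid kinase complex, 4 of 5 of the kinase complex, 5 of 8 of the conjugation system and 3 of 6 of the Atg9 group. The exceptions were mostly genes with little or no difference. ATG27, a membrane protein that traffics with Atg9, was at 132 to 155 TPM in the starved control and at 94.7 to 162 TPM in growth, and its ratio stayed between 0.799 and 1.38 over the 4 sets. ATG5, ATG10, ATG12 and ATG41 also overlapped with growth in every set. For ATG41, which encodes a partner of Atg9 needed during nitrogen starvation, growth itself spanned 25.3 to 155 TPM. Its ratio of medians was 1.59 in the control, 2.83 in the UME6 strain, 4.97 in the untethered Ime1 strain and 7.28 in the B112 strain. ATG13, the regulatory subunit of the kinase, overlapped in the control only through its 0.5 h libraries at 77.5 to 79.6 TPM, against a highest growth value of 82.2 TPM. Outside the family, 5, 4, 5 and 5 of 5 vacuolar hydrolase and cargo genes (PEP4, PRB1, PRC1, APE1 and AMS1) lay above growth in the 4 sets, and 6, 5, 3 and 4 of 12 genes of the shared membrane machinery (among them VPS30, VPS34, SNX4 and the fusion genes YPT7 and VAM3) did so, while 1 of the 12 lay wholly below growth in the untethered Ime1 strain and 1 in the B112 strain.

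**Figure D1:**
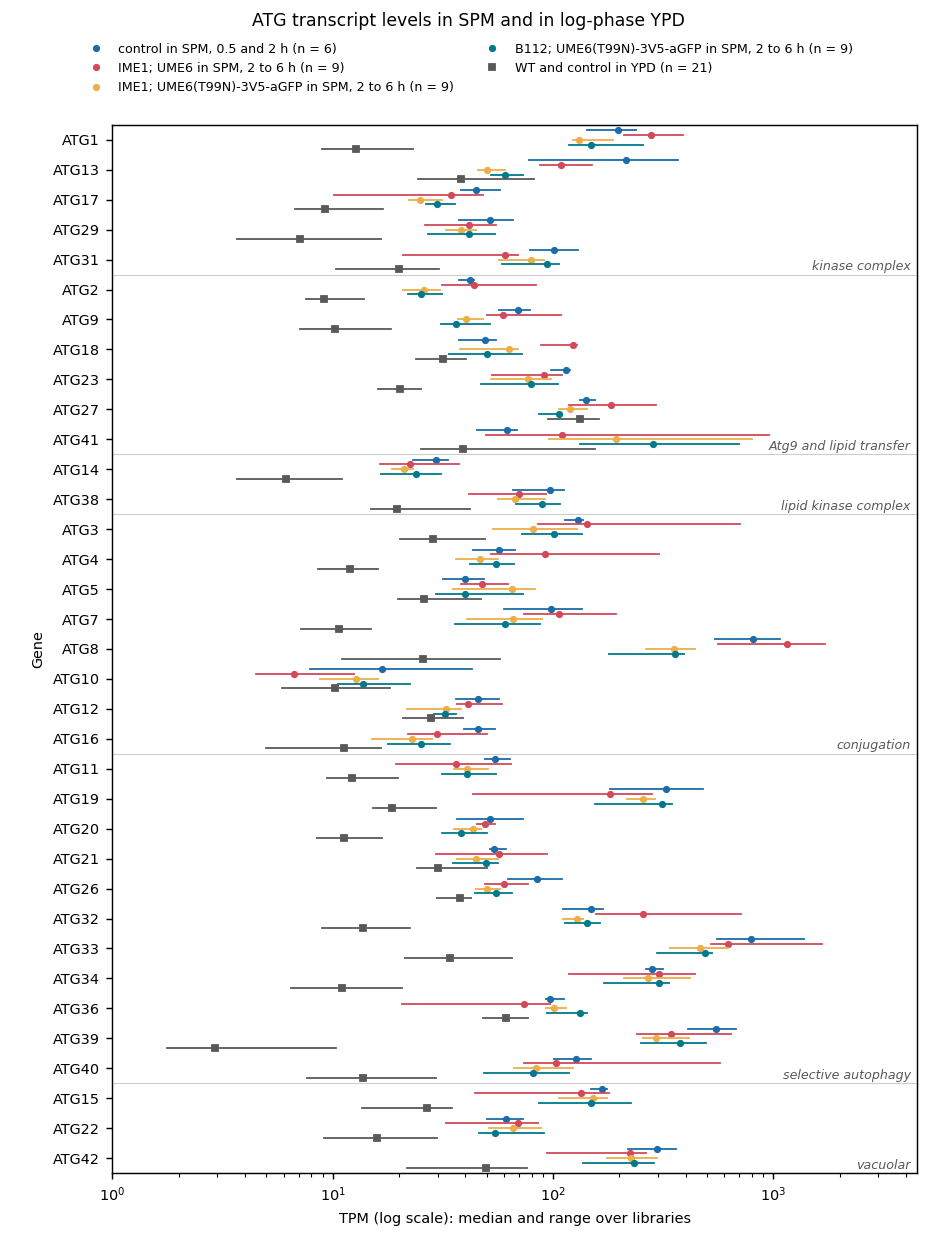
TPM on a log axis for each of the 35 ATG genes, grouped by role, as the median (point) and range (line) of the libraries in 4 SPM sets and, in grey, of 21 libraries growing in YPD. All 6 starved control libraries lie above all growth libraries for 28 genes, with ATG39 and ATG8 farthest apart, while ATG27 stays at the growth level.

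Summed over the family, the ATG transcripts took 5776 to 5949 TPM in the control at 0.5 h in SPM and 726 to 812 TPM in WT growing in YPD. At 0 h, the time of transfer, they already took 3091 to 3374 TPM in the UME6 strain and 6699 to 8782 TPM in the B112 strain. ATG8 and ATG33 were the 2 members above 500 TPM in every control library at 0.5 and 2 h, at 541 to 1067 TPM and 554 to 1376 TPM.

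The comparison of ume6Δ with WT asked which ATG genes differ in growing cells that lack the repressor. 17 of 35 ATG genes were higher in ume6Δ and 3 were lower (edgeR quasi-likelihood test, Benjamini-Hochberg adjusted p under 0.05), beside 27.5% and 27.8% of the 5488 genes tested. The share of ATG genes that rose, 48.6%, was above that of all genes, and the median log2FC (log2 fold change) was 0.25 over the ATG genes and -0.03 over all genes. ATG41 was at 210, 208 and 176 TPM in ume6Δ and at 37.8, 38.9 and 25.3 TPM in WT, a log2FC of 2.43 ± 0.18 (SE, adjusted p = 2.27e-13). ATG22, which exports amino acids from the vacuole, was at 36.7, 39.9 and 37.9 TPM in ume6Δ and at 9.57, 11.5 and 13.2 TPM in WT (1.66 ± 0.17, adjusted p = 2.93e-10). ATG8 was at 42.4, 51.3 and 33.0 TPM in ume6Δ and at 11.0, 16.5 and 11.6 TPM in WT (1.60 ± 0.32, adjusted p = 7.73e-05). For each of these 3 genes the ume6Δ libraries lay above all WT libraries. ATG34 (log2FC 1.55), ATG32 (1.36), ATG39 (1.36), ATG1 (1.31) and ATG15, the vacuolar lipase (1.26), rose without overlap too. ATG1 was at 23.9, 21.8 and 32.4 TPM in ume6Δ and at 9.82, 10.5 and 8.92 TPM in WT, and ATG9 rose by less (log2FC 0.43 ± 0.12, adjusted p = 0.0029). ATG14 had a log2FC of -0.11 (adjusted p = 0.7), and its libraries overlapped. WT stood lower in ATG8 than the AID-tagged control, in which Ume6 is not depleted. ATG8 took 1.67% of the summed ATG transcripts in WT and 3.83% in control at -30 min. The ATG8 values of ume6Δ lie within the range of 11.0 to 57.3 TPM over all WT and control libraries. WT and control were not compared by a test.

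The genes that fell in ume6Δ were ATG36, ATG21 and ATG27. ATG36, the receptor for autophagy of peroxisomes, was at 35.5, 33.7 and 47.5 TPM in ume6Δ and at 66.6, 65.7 and 59.6 TPM in WT (log2FC -0.82 ± 0.10, adjusted p = 1.81e-08), with no overlap. ATG21, which binds phosphoinositides, had a log2FC of -0.46 (adjusted p = 0.0129) with overlapping libraries, and its call was lost without the first WT library (adjusted p = 0.106), without TMM factors (0.0643) and by limma on TPM (0.161). ATG27 had a log2FC of -0.30 (adjusted p = 0.00135), also with overlap, and an adjusted p of 0.0502 by limma on TPM. By role, 7 of 11 selective autophagy genes rose, 3 of 5 of the kinase complex, 3 of 6 of the Atg9 group, 2 of 8 of the conjugation system, 2 of 3 vacuolar genes and 0 of 2 of the lipid kinase complex. All 5 hydrolase and cargo genes rose (median log2FC 0.83), as did 2 of 12 genes of the outside machinery, of which 1 fell. Beside these counts stand the haploid genes given above and the early meiotic genes IME2, SPO11, ZIP1, HOP1 and DMC1, which summed to 237 to 293 TPM in ume6Δ and 11.9 to 13.2 TPM in WT. Their part in the result was not tested.

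Ume6 depletion asked the same of cells that lost the protein within minutes. At -30 min, before auxin, 0 of 35 ATG genes were called by edgeR, DESeq2 or limma, beside 0.182% of all genes higher and 0.0547% lower, and 1 had an unadjusted p under 0.05. At 15 min after auxin 5 ATG genes were higher in Ume6 depletion and 0 were lower, beside 10.2% and 10.5% of all genes. The share of 14.3% is close to the share of all genes that rose, and the median log2FC was 0.21 over ATG genes and 0.00 over all genes. At an unadjusted p under 0.05, 14 were higher and 3 lower, and DESeq2 called 6 higher and 0 lower and limma 4 and 0. At 120 min 2 were higher and 0 lower, beside 3.61% and 1.99%, with 4 and 2 at an unadjusted p under 0.05 and 2 and 0 by DESeq2 and by limma.

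The 5 genes that rose at 15 min were ATG8, ATG41, ATG1, ATG12 and ATG20. ATG8 was at 46.1, 50.9 and 53.3 TPM in Ume6 depletion and at 22.8, 23.6 and 23.8 TPM in control (log2FC 1.04 ± 0.30, adjusted p = 0.0143). ATG41 was at 59.3, 63.7 and 58.7 TPM in Ume6 depletion and at 33.7, 36.5 and 28.2 TPM in control (0.84 ± 0.20, adjusted p = 0.00422). ATG1 was at 18.0, 19.9 and 18.5 TPM in Ume6 depletion and at 12.0, 11.3 and 12.2 TPM in control (0.62 ± 0.10, adjusted p = 5.73e-05). In all 3 genes every depletion library lay above every control library. ATG12, the ubiquitin-like partner of Atg5 (0.54, adjusted p = 0.0275), and ATG20, a sorting nexin (0.35, adjusted p = 0.0334), rose by less. ATG9 (0.28, adjusted p = 0.0804) and ATG14 (0.07) were not called. The count fell to 2 without the second control library, where ATG8 had an adjusted p of 0.0506, and to 3 without the first depletion library. ATG12 lost its call when any 1 of 5 libraries was left out (adjusted p 0.0567 to 0.0969), all but the third depletion library, and ATG20 lost its call without the first or the third depletion library or the second or the third control library (0.0729 to 0.182). Fitted without the other groups, the comparison called 13 ATG genes higher and 3 lower, and without TMM factors 11 higher and 0 lower. ATG1 and ATG8 are on the target list that the study drew from these mitotic libraries and then filtered by an earlier Ume6 ChIP-seq dataset. The expression part of that list is not independent evidence, while the binding data come from elsewhere.

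At 120 min ATG34 was at 31.5, 29.3 and 30.5 TPM in Ume6 depletion and at 20.6, 19.4 and 18.5 TPM in control (log2FC 0.70 ± 0.14, adjusted p = 0.00061). ATG8 was at 56.4, 88.7 and 55.2 TPM in Ume6 depletion and at 33.0, 45.5 and 25.7 TPM in control (0.99 ± 0.28, adjusted p = 0.0238). Neither gene overlapped between the strains, but the ATG8 call was lost without the first control (adjusted p = 0.0887), the third control (0.121) or the second depletion library (0.187), which left 1 called gene each time. ATG1 (0.07), ATG9 (0.10) and ATG14 (-0.19) were not called at this time. ATG41 reached 139, 152 and 101 TPM in Ume6 depletion and 103, 155 and 102 TPM in control, so that both strains stood high at the end of the course. At the untested times between, ATG8 was at 58.7, 62.5 and 38.2 TPM at 30 min and at 58.0, 65.1 and 44.3 TPM at 60 min in Ume6 depletion, against 26.8, 24.1 and 22.8 TPM and 27.7, 28.9 and 27.2 TPM in control. Of the ATG genes called after depletion at 15 min, ATG1, ATG8 and ATG41 were also higher in ume6Δ, which is 3 of 5 and 3 of 17. Of all genes 4.37% were higher in both, where 10.2% were higher at 15 min and 27.5% in ume6Δ. The 5 early meiotic genes all rose at 15 and at 120 min (median log2FC 2.27 and 2.90). Of the 5 hydrolase and cargo genes, 1 fell at 15 min and 1 rose at 120 min, and of the 12 outside genes 1 rose at 15 min and 1 fell at 120 min.

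**Figure D2:**
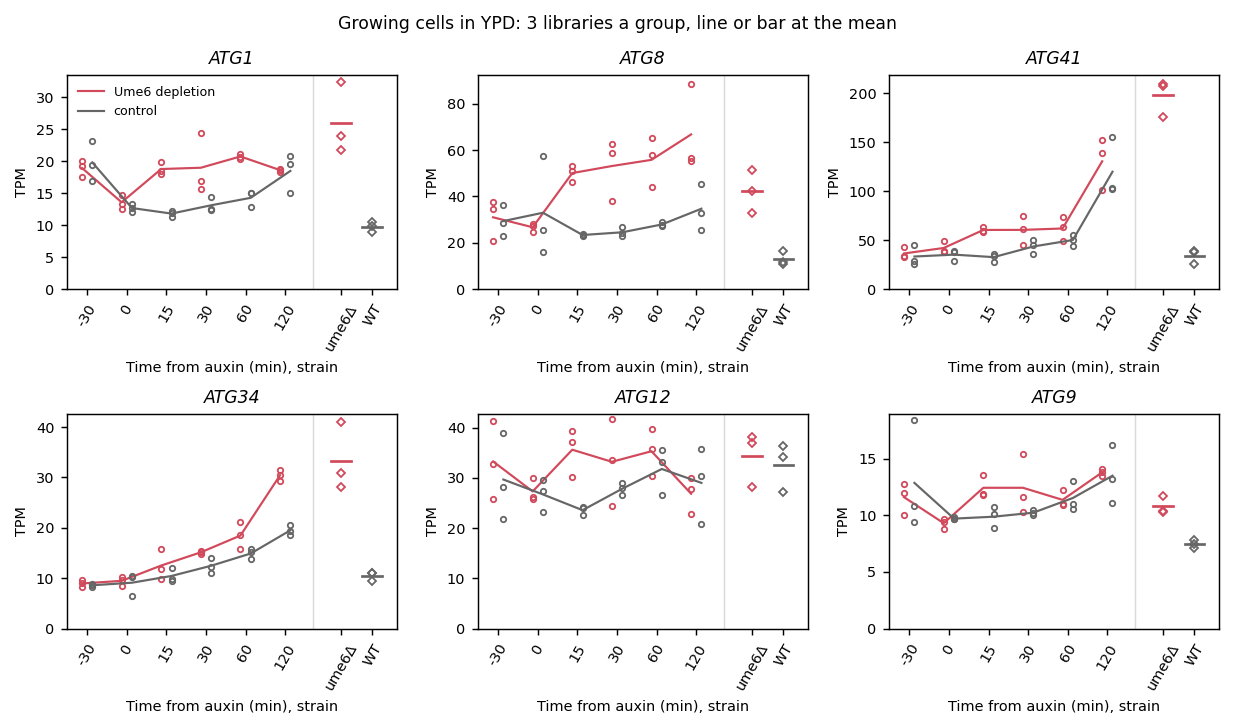
TPM of 6 ATG genes in cells growing in YPD. Points are single libraries, lines run through the means of Ume6 depletion and control from -30 to 120 min, and ume6Δ and WT are diamonds. The ume6Δ libraries went against their haploid label. ATG8 is higher in Ume6 depletion from 15 min on, ATG41 is high in ume6Δ at 176 to 210 TPM, and ATG9 differs little.

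In the control of the meiotic experiment the family was at its highest soon after transfer to SPM. At 2 h against 0.5 h, 3 ATG genes were higher and 22 were lower, beside 30.9% and 35.5% of the 5526 genes tested. The median log2FC was -0.45 over ATG genes and -0.06 over all genes, and the share that fell, 62.9%, was above that of all genes. ATG8 was at 602, 541 and 611 TPM at 2 h and at 1022, 1000 and 1067 TPM at 0.5 h (log2FC -0.98 ± 0.13, adjusted p = 5.06e-08), and ATG1 was at 144, 167 and 143 TPM at 2 h and at 236, 237 and 227 TPM at 0.5 h (-0.79). ATG19 (-1.26), ATG7, the activating enzyme of both conjugation pathways (-1.11), and ATG20 (-1.04) fell most, and ATG9 (-0.54) and ATG14 (-0.45) fell too. The ATG14 call was lost without TMM factors (adjusted p = 0.0899) and by limma on TPM (0.0621). All 5 hydrolase and cargo genes fell, as did 6 of the 12 outside genes, of which 1 rose.

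ATG13, ATG10 and ATG33 went the other way. ATG13 was at 367, 348 and 371 TPM at 2 h and at 77.5, 79.6 and 78.6 TPM at 0.5 h (log2FC 2.04 ± 0.13, adjusted p = 2.06e-14), and at 2.5 h it stood at 523, 606 and 557 TPM. By 6 h it was at 87.7, 69.9 and 88.0 TPM, a log2FC of -2.18 ± 0.13 against 2 h (adjusted p = 5.23e-15). No other subunit of the kinase complex had this course. ATG33 was at 995, 1244 and 1376 TPM at 2 h and at 583, 554 and 580 TPM at 0.5 h (0.92), and ATG10, the conjugating enzyme for Atg12, was at 23.2, 31.1 and 43.0 TPM at 2 h and at 7.89, 8.83 and 10.4 TPM at 0.5 h (1.69). Neither gene overlapped between the 2 times.

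After copper was added, at 6 h against 2 h, 9 ATG genes were higher and 14 were lower, beside 34.2% and 34.9% of all genes, and without TMM factors the split was 13 and 10. These comparisons share the control libraries at 2 h with the one before. ATG1 was at 397, 384 and 447 TPM at 6 h (log2FC 1.40 ± 0.14 against 2 h, adjusted p = 6.23e-10), ATG27 was at 310, 259 and 309 TPM at 6 h and 150, 136 and 132 TPM at 2 h (1.04), and ATG41 (1.07), ATG7 (0.85) and ATG5 (0.81) rose too. ATG33 (-1.15), ATG23, which traffics with Atg9 (-0.85), and ATG14 (-0.58) fell. ATG8 stood at 562, 538 and 632 TPM at 6 h (-0.05, adjusted p = 0.755), and ATG9 had a log2FC of 0.18 (adjusted p = 0.0971) that was called without TMM factors (0.00159) or without the second library at either time (0.0414 and 0.024). Of the other lists, 5 of 5 early meiotic genes and 5 of 12 outside genes rose while 3 outside genes and 1 of 5 hydrolase and cargo genes fell.

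Ume6 depletion in SPM changed few ATG genes. At 2 h 0 were higher and 2 were lower, beside 1.85% and 2.9% of all genes (1 and 3 at an unadjusted p under 0.05, 0 and 2 by DESeq2 and by limma). At 2.5 h, 2 were higher and 1 was lower, beside 3.35% and 4.92%, and at 6 h 4 were higher and 0 were lower, beside 6.5% and 7.11% (6 and 3 at an unadjusted p under 0.05, 5 and 0 by DESeq2, 2 and 0 by limma). The median log2FC of the ATG genes lay between -0.03 and 0.01 at the 3 times. These counts are near the share of all genes called. ATG8, which rose after depletion in growing cells, was at 672, 599 and 668 TPM in Ume6 depletion at 2 h and at 602, 541 and 611 TPM in control (log2FC 0.18 ± 0.13, adjusted p = 0.513), and its libraries overlapped at 2, 2.5 and 6 h. The difference between growth and SPM in this response was not tested. The study states that Ume6 was depleted less fully in SPM than in growing cells. The strains also differed in ATG8 at 0.5 h, when auxin was added. ATG8 was then at 976, 882 and 854 TPM in Ume6 depletion and at 1022, 1000 and 1067 TPM in control, which was not tested.

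The called genes were ATG10 and ATG33 at 2 h, ATG31, ATG15 and ATG13 at 2.5 h, and ATG15, ATG31, ATG19 and ATG23 at 6 h. ATG10 was at 15.9, 18.5 and 17.7 TPM in Ume6 depletion at 2 h and at 23.2, 31.1 and 43.0 TPM in control (log2FC -0.88 ± 0.21, adjusted p = 0.00896). ATG33 was at 882, 877 and 678 TPM in Ume6 depletion and at 995, 1244 and 1376 TPM in control (-0.55 ± 0.15, adjusted p = 0.027). Neither overlapped between the strains. The ATG10 call was lost without the third control (adjusted p = 0.199) or the first depletion library (0.0549), and the ATG33 call without the second (0.131) or the third control (0.267) or the second (0.0506) or the third depletion library (0.166). The count at 2 h was 0 without the third control library and 1 without the second control library or any 1 of the depletion libraries.

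ATG15 was at 153, 150 and 143 TPM in Ume6 depletion at 6 h and at 96.0, 99.4 and 121 TPM in control (0.57 ± 0.11, adjusted p = 0.00066), and at 2.5 h its log2FC was 0.38 (adjusted p = 0.0317). ATG31, a scaffold subunit of the kinase complex, was at 91.6, 78.2 and 99.3 TPM in Ume6 depletion at 6 h and at 56.4, 68.3 and 76.1 TPM in control (0.49 ± 0.11, adjusted p = 0.00242), and at 2.5 h its log2FC was 0.46 (adjusted p = 0.00821). ATG15 and ATG31 were thus higher in every depletion library at both times. ATG13 was at 434, 470 and 335 TPM in Ume6 depletion at 2.5 h and at 523, 606 and 557 TPM in control (-0.40 ± 0.13, adjusted p = 0.0444), and of the 6 fits with 1 library left out this call held only in the one without the second depletion library. The ATG15 call at 2.5 h was lost without the first or the third library of either strain (0.0684 to 0.143), and the ATG31 call without the third depletion library (0.0518). The count at 2.5 h was 0 without the third depletion library, and 1 without the first depletion or the third control library. ATG19 was at 181, 153 and 179 TPM in Ume6 depletion at 6 h and at 132, 118 and 145 TPM in control (0.45, adjusted p = 0.00511), without overlap. ATG23 overlapped (0.33 ± 0.09, adjusted p = 0.00889), and its call was lost without the second control (0.0773) or the third depletion library (0.157). ATG9 and ATG14 were not called at any of the 3 times, with log2FC values of -0.13 to 0.17. ATG1 had log2FC values of 0.03, -0.34 (adjusted p = 0.13) and -0.33 (adjusted p = 0.123) at 2, 2.5 and 6 h. Of the 5 early meiotic genes 3 rose at 2 h, 4 fell at 2.5 h and all 5 fell at 6 h.

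**Figure D3:**
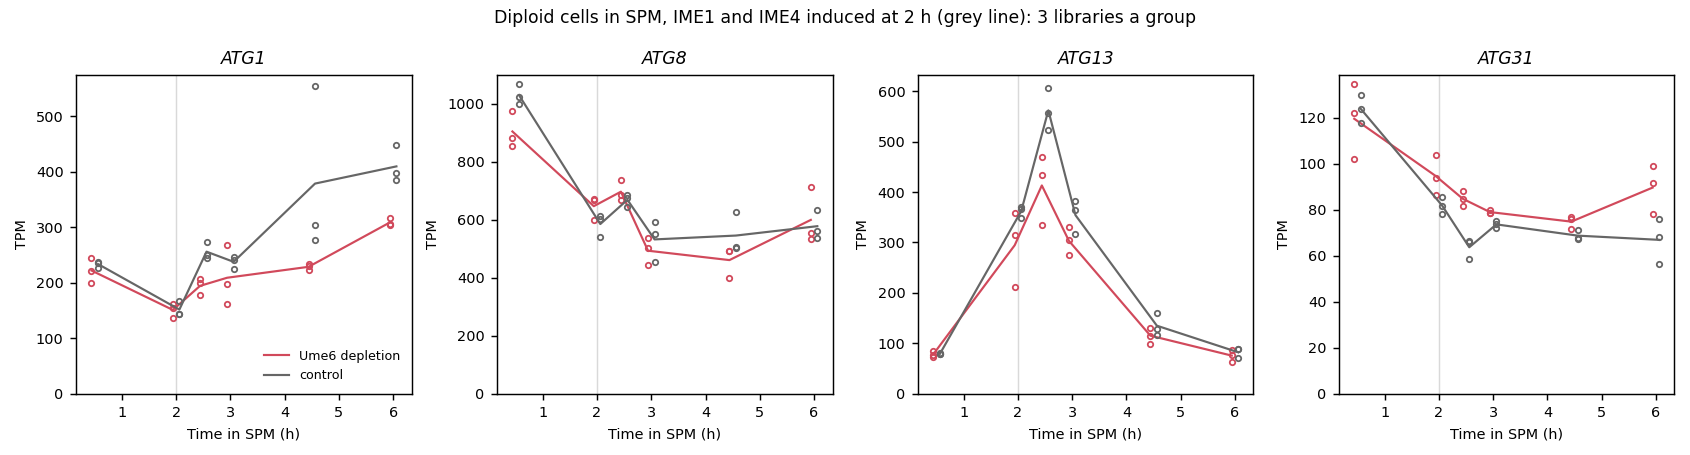
TPM of ATG1, ATG8, ATG13 and ATG31 in diploid cells in SPM from 0.5 to 6 h, with points for single libraries and lines through the means of Ume6 depletion and control, and a grey line at 2 h where IME1 and IME4 were induced. ATG13 peaks at 2.5 h at 523 to 606 TPM in control. ATG8 overlaps between the strains at the 3 times tested (2, 2.5 and 6 h). At 0.5 and 4.5 h, which were not tested, ATG8 is lower in every Ume6 depletion library than in control.

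With native Ime1 and Ume6 the family rose further during the meiotic course. In the UME6 strain 23 ATG genes were higher and 3 were lower at 2 h against 0 h, beside 33.0% and 33.8% of the 5527 genes tested, with a median log2FC of 0.44 over ATG genes and 0.00 over all genes. At 6 h against 0 h, 19 were higher and 7 were lower, beside 39.6% and 42%, with medians of 0.40 and -0.04. Without TMM factors the split at 6 h was 17 and 12, and by limma on TPM 14 and 11, as the median of all genes stood at -0.34 and -0.48 on these scales. Both comparisons share the libraries at 0 h. The summed ATG transcripts took 3091 to 3374 TPM at 0 h, 5225 to 5306 TPM at 2 h and 7743 to 8029 TPM at 6 h.

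ATG40, the receptor for autophagy of the endoplasmic reticulum, had the largest change of the family. It was at 28.6, 29.3 and 33.7 TPM at 0 h, 82.6, 74.1 and 81.6 TPM at 2 h, 101, 103 and 108 TPM at 4 h and 561, 571 and 530 TPM at 6 h (log2FC 4.63 ± 0.24 at 6 h against 0 h, adjusted p = 7.56e-28). ATG8 was at 403, 435 and 363 TPM at 0 h, 678, 558 and 714 TPM at 2 h, 1104, 1155 and 1449 TPM at 4 h and 1634, 1710 and 1685 TPM at 6 h (2.51 ± 0.14, adjusted p = 2.81e-26). ATG40 stepped up mainly between 4 and 6 h while ATG8 stepped up at each time, and neither gene overlapped between 0 and 6 h. ATG1 was at 69.8, 81.4 and 79.8 TPM at 0 h, 209, 261 and 244 TPM at 2 h and 389, 341 and 298 TPM at 6 h (1.59 at 2 h and 2.60 at 6 h). ATG2, the lipid transfer protein (2.99), ATG32 (2.91), ATG33 (2.82), ATG3, the conjugating enzyme for Atg8 (2.76), ATG4, the Atg8 protease (2.69), ATG13 (2.16) and ATG14 (1.71) rose at 6 h, and ATG9 rose by 0.79. At 2 h ATG13 (1.52), ATG2 (1.37), ATG40 (1.34), ATG8 (0.65) and ATG9 (0.57) had risen and ATG5 (-1.36), ATG20 (-0.64) and ATG3 (-0.51) had fallen. At that time ATG14 had a log2FC of 0.47, a call lost without the first library at 0 h (adjusted p = 0.0694) or the third at 2 h (0.0756).

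ATG41 had a different course. It was at 44.8, 42.8 and 101 TPM at 0 h, 888, 958 and 636 TPM at 2 h, 81.7, 110 and 117 TPM at 4 h and 54.9, 49.5 and 56.2 TPM at 6 h (log2FC 3.70 ± 0.43 at 2 h, adjusted p = 1.42e-11). It was therefore high at 2 h alone. ATG19 was at 45.6, 57.1 and 43.4 TPM at 6 h and at 258, 291 and 259 TPM at 0 h (-2.03 ± 0.15, adjusted p = 1.21e-19), without overlap. ATG36 (-1.16) and ATG5 (-1.06) fell too, so that receptors were found at both ends of the range: ATG40 and ATG32 up, ATG19 and ATG36 down. By role, 5 of 6 genes of the Atg9 group, 5 of 8 of the conjugation system, 5 of 11 selective autophagy genes, 2 of 5 of the kinase complex and 2 of 2 of the lipid kinase complex were higher at 6 h, and 3 selective, 2 kinase complex, 1 conjugation and 1 vacuolar gene were lower. Of the outside genes 8 of 12 rose and 2 fell, and of the hydrolase and cargo genes 1 of 5 rose and 2 fell. The middle meiotic genes NDT80, SMK1, SPS4 and CLB1 summed to 18785 to 19169 TPM at 6 h and 39.5 to 47.1 TPM at 0 h in the same libraries, and their part in these changes was not tested.

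The untethered Ime1 strain was used to ask which ATG genes change in SPM when the binding of Ime1 to Ume6 is impaired. This strain still sporulated at a low rate in the study, so a complete loss of the binding cannot be assumed. It also carries the 3V5 tag and the nanobody, which the UME6 strain lacks. Here 21 ATG genes were higher and 6 were lower at 2 h against 0 h, beside 32.3% and 28.1% of all genes, and 25 were higher and 2 were lower at 6 h, beside 31.7% and 29.9%. The median log2FC was 0.51 and 0.59 over ATG genes and 0.05 and 0.02 over all genes. ATG41 was at 800, 595 and 788 TPM at 2 h and at 69.9, 57.0 and 86.3 TPM at 0 h (log2FC 3.40). ATG1 was at 188, 159 and 184 TPM at 2 h and 128, 131 and 138 TPM at 6 h, against 41.3, 63.3 and 56.1 TPM at 0 h (1.78 and 1.32). Both genes rose with no overlap between the times tested. At 2 h ATG38, a subunit of the lipid kinase complex (1.72), ATG2 (1.48), ATG40 (1.41), ATG14 (0.52) and ATG9 (0.41) rose too and ATG5 (-1.15), ATG3 (-0.65) and ATG4 (-0.42) fell. ATG2 (1.73), ATG40 (1.54), ATG38 (1.37) and ATG34 (1.31) also rose at 6 h, as did ATG9 (0.55) and ATG14 (0.59), and ATG5 (-0.50) and ATG20 (-0.42) were the 2 that fell. ATG8 was at 353, 329 and 340 TPM at 0 h, 312, 274 and 263 TPM at 2 h, 334, 396 and 354 TPM at 4 h and 413, 441 and 400 TPM at 6 h (-0.23 at 2 h, adjusted p = 0.14, and 0.31 ± 0.13 at 6 h, adjusted p = 0.0427). The ATG8 call at 6 h was lost without the second (0.116) or the third library at 0 h (0.107), without the first (0.0605) or the second at 6 h (0.146), without TMM factors (0.0891) and by limma on TPM (0.059). At 6 h 4 of 5 hydrolase and cargo genes rose, and 5 of 12 outside genes rose while 1 fell.

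The difference between the 2 strains was tested directly, as the change from 0 to 6 h in the untethered Ime1 strain minus that in the UME6 strain. It was positive for 13 ATG genes and negative for 12, beside 37.6% and 31.9% of all genes, with medians of -0.10 over ATG genes and 0.12 over all genes. With relative log expression size factors the split was 8 and 16, and by DESeq2 8 and 15. The shares are near those of all genes. The 2 strains differ in the T99N change, the 3V5 tag and the nanobody, and this contrast does not tell them apart. ATG40 (-3.09 ± 0.31, adjusted p = 1.04e-13), ATG4 (-2.71), ATG32 (-2.58), ATG8 (-2.20 ± 0.19, adjusted p = 2.1e-16), ATG1 (-1.28) and ATG14 (-1.12) rose less in the untethered Ime1 strain. For ATG40 the levels at 6 h were 88.4, 79.4 and 88.4 TPM in the untethered Ime1 strain and 561, 571 and 530 TPM in the UME6 strain. The strain with the tag alone, IME1; UME6-3V5, had 103, 111 and 97.9 TPM of ATG40 at 6 h, far below the UME6 strain as well. For ATG8 and ATG4 it lay between the other two strains, at 1222, 1122 and 1165 TPM and at 132, 111 and 122 TPM, and for ATG1 it overlapped with the UME6 strain, at 375, 325 and 346 TPM. The part of the tag in the differences was not tested. ATG19 (2.32), ATG36 (1.96), ATG15 (1.84), ATG34 (1.35) and ATG31 (1.27) had positive differences. At 6 h ATG19 was at 267, 248 and 280 TPM in the untethered Ime1 strain and at 45.6, 57.1 and 43.4 TPM in the UME6 strain, without overlap. ATG9 had a difference of -0.24 (adjusted p = 0.193), which was called with relative log expression size factors (0.0164) and by DESeq2 (0.0182).

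Tethering Ime1 to the same Ume6 allele was compared with the untethered Ime1 strain at 2 and 6 h, which share the untethered libraries with the comparisons above. At 2 h 15 ATG genes were higher in the tethered Ime1 strain and 9 were lower, beside 29.0% and 33.3% of all genes. Without TMM factors the split was 20 and 5, and by limma on TPM 17 and 3. At 6 h 16 were higher and 9 were lower, beside 33.0% and 37.4%. The median log2FC was 0.23 and 0.04 over ATG genes and -0.06 at both times over all genes. At 6 h ATG1 was at 353, 361 and 367 TPM in the tethered Ime1 strain and at 128, 131 and 138 TPM in the untethered Ime1 strain (log2FC 1.34 ± 0.16, adjusted p = 5.86e-11). ATG8 was at 1038, 1183 and 1008 TPM in the tethered Ime1 strain and at 413, 441 and 400 TPM in the untethered Ime1 strain (1.26 ± 0.13, adjusted p = 5.21e-13). ATG19 was at 79.9, 84.8 and 113 TPM in the tethered Ime1 strain and at 267, 248 and 280 TPM in the untethered Ime1 strain (-1.63 ± 0.15). None of these 3 overlapped between the strains. Already at 0 h ATG8 took 14.9% of the summed ATG transcripts with the tether (3305 to 3878 TPM) and 12.6% without it (2659 to 2784 TPM), which was not tested.

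ATG4 (1.28), ATG32 (1.21), ATG7 (1.04) and ATG9 (0.58) were also higher at 6 h with tethered Ime1, ATG36 (-1.32) and ATG38 (-1.22) were lower, and ATG14 was not called (-0.23, adjusted p = 0.171). At 2 h ATG7 had the largest increase, at 217, 209 and 189 TPM in the tethered Ime1 strain and 46.0, 51.4 and 40.8 TPM in the untethered Ime1 strain (1.86 ± 0.13, adjusted p = 1.33e-20). ATG8 (1.22), ATG18, the phosphoinositide-binding partner of Atg2 (1.09), ATG21 (0.72), ATG27 (0.68) and ATG9 (0.40) rose at 2 h, while ATG1 had a log2FC of 0.17 (adjusted p = 0.369) and ATG14 of -0.33 (0.0745). ATG1 was called without TMM factors (0.0129), and ATG14 without the third library of the tethered Ime1 strain (0.00948). ATG41 was at 105, 169 and 242 TPM in the tethered Ime1 strain at 2 h and at 800, 595 and 788 TPM in the untethered Ime1 strain (-2.37 ± 0.39, adjusted p = 3.74e-07), without overlap. ATG38 (-1.31) and ATG10 (-1.08, overlapping libraries) were lower as well at 2 h. By limma on TPM the calls of ATG27 (adjusted p = 0.202) and ATG10 (0.1) at 2 h were lost and ATG1 was called (0.0155). By role at 6 h, 5 of 11 selective autophagy genes, 4 of 8 conjugation genes, 4 of 6 of the Atg9 group and 2 of 5 of the kinase complex were higher. Outside the family 7 of 12 genes were higher and 2 lower, and of the hydrolase and cargo genes 1 of 5 was higher and 3 lower. At 6 h the early meiotic genes summed to 3959 to 4391 TPM with tethered Ime1 and 85.6 to 120 TPM without the tether, and the middle genes to 1667 to 5306 TPM and 34.2 to 66.7 TPM. Their part in these differences was not tested.

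In the activation domain experiment the tether was tested with a transgene as the only source of Ime1, and then with B112 in its place. With sfGFP-IME1 against IME1, 17 ATG genes were higher and 5 were lower at 2 h, beside 32.6% and 31.2% of the 5528 genes tested, and 9 were higher and 11 were lower at 6 h, beside 30.1% and 31.0%. The median log2FC was 0.38 at 2 h and -0.16 at 6 h over ATG genes, and -0.02 and -0.05 over all genes. At 6 h limma on TPM gave 7 higher and 26 lower, on a scale where the median of all genes was -0.80. ATG8 was at 3133, 3660 and 2677 TPM with sfGFP-IME1 at 6 h and at 417, 341 and 357 TPM with IME1 (log2FC 3.84 ± 0.19, adjusted p = 2.51e-18), its highest level in any comparison here. ATG40 was at 455, 456 and 385 TPM with sfGFP-IME1 and at 135, 92.4 and 88.4 TPM with IME1 (2.79). ATG33 (2.02), ATG3 (1.58) and ATG4 (1.45) rose as well, all without overlap. ATG1 (1.30, overlapping libraries) and ATG14 (0.96) were called, though ATG14 was not by limma on TPM (adjusted p = 0.425), and ATG9 was not called (-0.42, adjusted p = 0.0663) but was without the first sfGFP-IME1 library (0.0256), without TMM factors (0.00089) and by limma on TPM. ATG15 was at 29.8, 24.0 and 14.4 TPM with sfGFP-IME1 and at 186, 159 and 194 TPM with IME1 (-2.24 ± 0.33), and ATG19 (-1.97) and ATG11, the scaffold of selective autophagy (-1.36), were lower too. ATG19 stood at 59.7, 76.3 and 47.3 TPM with sfGFP-IME1 and at 224, 136 and 203 TPM with IME1 already at 0 h. At that time ATG8 took 17.3% of the summed ATG transcripts with sfGFP-IME1 (7208 to 8462 TPM) and 12.2% with IME1 (7150 to 8187 TPM). The middle genes summed to 31163 to 43614 TPM with sfGFP-IME1 at 6 h and 39.0 to 49.4 TPM with IME1.

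At 2 h the same pair differed most in ATG18 (log2FC 1.64), ATG7 (1.54), ATG8 (1.45), ATG27 (1.16) and ATG39 (1.15). ATG7 was at 125, 150 and 123 TPM with sfGFP-IME1 and at 59.1, 39.0 and 36.4 TPM with IME1, and ATG8 was at 479, 690 and 661 TPM with sfGFP-IME1 and at 241, 216 and 201 TPM with IME1. ATG41 was at 113, 70.3 and 92.9 TPM with sfGFP-IME1 and at 447, 946 and 713 TPM with IME1 (-2.95 ± 0.55). None of the 3 overlapped. ATG1 (0.79) and ATG9 (0.75) rose, ATG19 (-1.58) and ATG31 (-0.88) fell, and ATG14 had a log2FC of -0.25 and was not called.

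With sfGFP-B112 against B112, 8 ATG genes were higher and 6 were lower at 2 h, beside 24.0% and 24.4% of all genes, and 15 were higher and 8 were lower at 6 h, beside 28.5% and 31.1%. Without TMM factors the splits were 13 and 1 at 2 h and 15 and 4 at 6 h, and by limma on TPM 10 and 4 at 2 h. The median log2FC was 0.12 and 0.37 over ATG genes and -0.07 and -0.05 over all genes. At 6 h ATG8 was at 1294, 1155 and 1251 TPM with sfGFP-B112 and at 392, 375 and 357 TPM with B112 (1.63 ± 0.18, adjusted p = 8.78e-10). Already at 0 h ATG8 took 19.8% of the summed ATG transcripts with sfGFP-B112 (7977 to 8378 TPM) and 11.2% with B112 (6699 to 8782 TPM), which was not tested. ATG7 was at 167, 211 and 219 TPM with sfGFP-B112 and at 87.4, 63.5 and 60.9 TPM with B112 (1.41), and ATG1 was at 324, 369 and 407 TPM with sfGFP-B112 and at 138, 150 and 146 TPM with B112 (1.25). All 3 were higher in every sfGFP-B112 library. Both strains carry no IME1, and IME1 stood at 0.274 to 4.27 TPM in them. ATG27 (1.09), ATG13 (0.91) and ATG9 (0.61) rose too, while ATG19 (-1.39), ATG36 (-1.33), ATG38 (-1.05) and ATG14 (-0.77) fell. The ATG14 call was lost without TMM factors (adjusted p = 0.0801). At 2 h ATG7 (1.21), ATG8 (1.12), ATG18 (0.91), ATG39 (0.86), ATG23 (0.59) and ATG9 (0.58) rose, ATG19 (-1.02), ATG38 (-0.89) and ATG14 (-0.50) fell and ATG1 was not called (-0.11). The ATG9 call was lost without the third library of either strain (0.0733 and 0.0716), and the ATG14 call without the first (0.11) or the second sfGFP-B112 library (0.0585) or the second B112 library (0.127). Without TMM factors the calls of ATG38 (0.131) and ATG14 (0.586) at 2 h were lost, and that of ATG14 also by limma on TPM (0.276). ATG41 was at 290, 217 and 181 TPM with sfGFP-B112 at 2 h and at 697, 365 and 620 TPM with B112 (-1.47 ± 0.52, adjusted p = 0.018), a call lost without TMM factors (0.125), by limma on TPM (0.0654) and without the second (0.0514) or the third sfGFP-B112 library (0.0719) or the first B112 library (0.0639). The early meiotic genes summed to 5010 to 5684 TPM with sfGFP-B112 at 6 h and 55.8 to 63.6 TPM with B112. Their part in these differences was not tested.

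**Figure D4:**
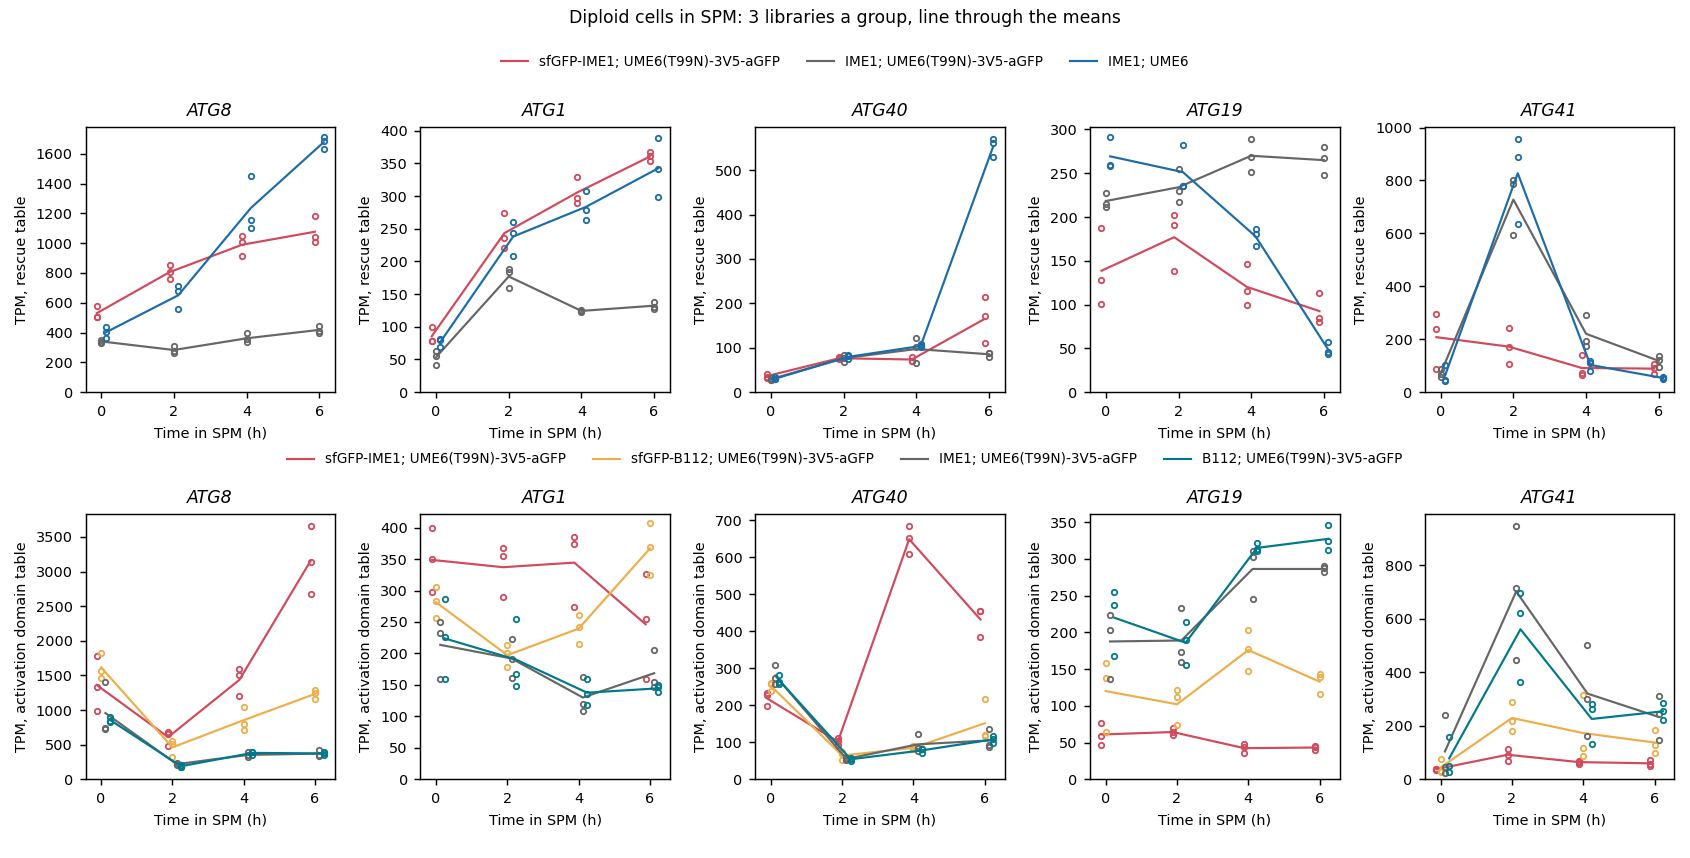
TPM of ATG8, ATG1, ATG40, ATG19 and ATG41 from 0 to 6 h in SPM, with points for single libraries and lines through the means. The top row shows 3 strains of the rescue experiment and the bottom row 4 strains of the activation domain experiment. Strains with tethered Ime1 or B112 end higher in ATG8 and ATG1 and lower in ATG19 than their untethered partners, except that ATG1 overlaps between sfGFP-IME1 and IME1 in the bottom row.

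The tether comparisons of the 2 experiments share no libraries. At 6 h, 14 ATG genes were higher both with tethered Ime1 in the rescue experiment and with sfGFP-B112, which is 14 of 16 and 14 of 15, and 7 were lower in both, which is 7 of 9 and 7 of 8. Among all genes 24.8% were higher in both, where 33.0% were higher with tethered Ime1 and 28.5% with sfGFP-B112. Lower in both were 27.3%, where 37.4% and 31.1% were lower in each. Most genes called in either pair were thus called the same way in the other, ATG or not. The 14 were ATG1, ATG2, ATG4, ATG7, ATG8, ATG9, ATG13, ATG18, ATG21, ATG27, ATG32, ATG33, ATG39 and ATG40, and the 7 were ATG5, ATG10, ATG15, ATG19, ATG31, ATG36 and ATG38. No ATG gene was called in opposite directions, and among all genes 0.326% were. At 2 h 7 were higher in both (7 of 15 and 7 of 8) and 4 were lower in both (4 of 9 and 4 of 6). Of all genes 17.2% were higher and 19.9% lower in both. In the rescue and B112 pairs taken singly, 29.0% and 24.0% of all genes were higher and 33.3% and 24.4% lower. The rescue pair and the sfGFP-IME1 transgene pair shared 8 higher (8 of 16 and 8 of 9), 6 lower (6 of 9 and 6 of 11) and 1 opposite gene at 6 h, ATG22. Among all genes 20.2% were higher in both, 21.3% lower in both and 4.71% opposite. In the rescue and transgene pairs taken singly, 33.0% and 30.1% of all genes were higher and 37.4% and 31.0% lower.

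The course of the B112 strain, which has neither Ime1 nor a tether, ran down from 0 to 2 h, as the summed ATG transcripts did in all 4 activation domain strains. The sums were 6699 to 8782 TPM at 0 h and 3416 to 3535 TPM at 2 h in the B112 strain, and 7150 to 8462 TPM at 0 h and 3486 to 5301 TPM at 2 h over the other 3 strains, so that no strain overlapped between these times. The other 3 courses were not tested. At 2 h against 0 h 3 ATG genes were higher and 29 were lower, beside 35.7% and 39.9% of all genes, and at 6 h 2 were higher and 25 were lower, beside 34.4% and 37.8%. The median log2FC was -1.59 and -1.08 over ATG genes and -0.10 and -0.06 over all genes. Limma on TPM gave 6 and 24 at 2 h and 8 and 16 at 6 h, and the fit without TMM factors gave 7 and 18 at 6 h. ATG39 was at 277, 328 and 251 TPM at 2 h and at 2857, 1638 and 2286 TPM at 0 h (-3.55 ± 0.22, adjusted p = 2.82e-16). ATG8 was at 180, 205 and 184 TPM at 2 h and at 905, 834 and 845 TPM at 0 h (-2.76), and ATG9 was at 40.9, 36.1 and 30.9 TPM at 2 h and at 176, 104 and 143 TPM at 0 h (-2.53). All libraries at 2 h lay below all at 0 h in these 3 genes. ATG20 (-3.0), ATG40 (-2.88) and ATG14 (-2.30) fell as well, and ATG1 (-0.79, adjusted p = 0.00478, overlapping libraries) lost its call without TMM factors (0.281) and by limma on TPM (0.361). ATG41 was at 697, 365 and 620 TPM at 2 h and at 160, 48.6 and 27.0 TPM at 0 h (2.29 ± 0.54), and ATG10 (1.25) and ATG13 (0.43, adjusted p = 0.0596 without the first library at 2 h) rose. At 6 h ATG39 (-3.08), ATG20 (-2.59), ATG9 (-2.33), ATG8 (-1.81), ATG14 (-1.79) and ATG1 (-1.22) were lower than at 0 h and ATG10 (0.85) and ATG31 (0.49) were higher. The ATG10 call at 6 h was lost without the first (0.0506) or the third library at 0 h (0.0681), and the ATG31 call without the third at 6 h (0.0588) or the first at 0 h (0.145). Of the hydrolase and cargo genes 4 of 5 fell at 2 h, and of the outside genes 8 of 12.

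The levels at 0 h, the time of transfer to SPM, differed between the 2 experiments. ATG39 was at 1638 to 2857 TPM across the 4 activation domain strains at 0 h and at 169 to 219 TPM in the untethered Ime1 strain of the rescue experiment. ATG40 was at 197 to 310 TPM across the activation domain strains and at 27.1 to 32.9 TPM in the untethered Ime1 strain of the rescue experiment. The summed ATG transcripts took 6699 to 8782 TPM in the activation domain strains, against 2659 to 2784 TPM in the untethered Ime1 strain. At 6 h the sums were 4298 to 4733 TPM in the B112 strain and 4069 to 4370 TPM in the untethered Ime1 strain. The 2 strains were thus closer at 6 h than at 0 h. Of the 35 ATG genes, 15 were called in both courses from 0 to 2 h with opposite directions, beside 16.8% of all genes. A further 3 were higher and 6 lower in both, beside 15.5% and 14.0%. ATG1, ATG2, ATG9 and ATG40 were among the 15. The experiments share no libraries, and experiment and strain cannot be told apart.

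**Figure D5:**
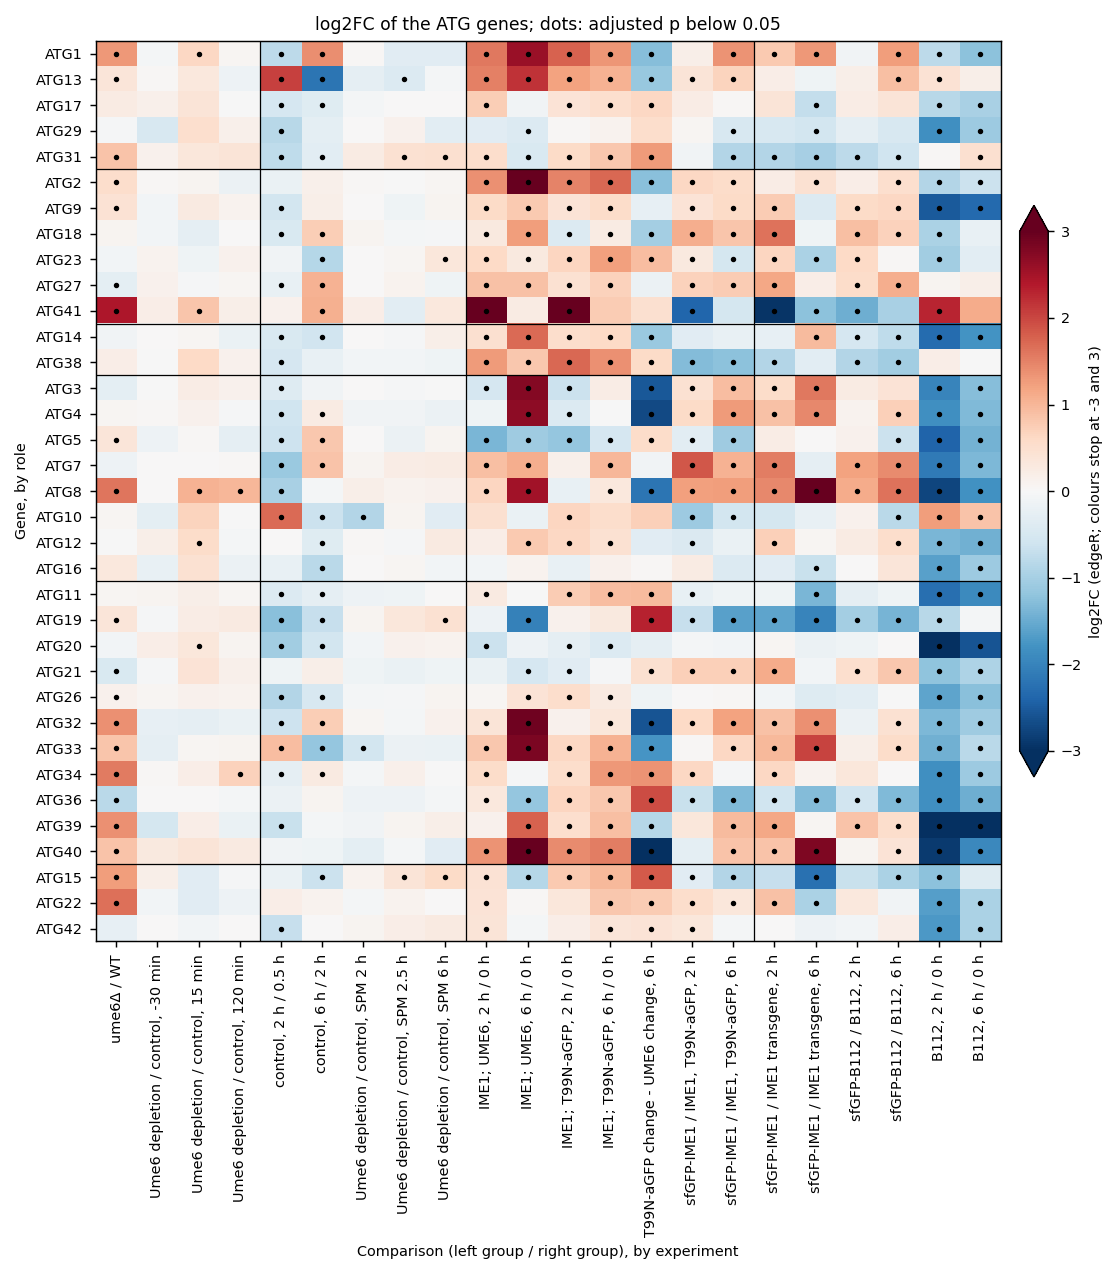
Log2FC of each of the 35 ATG genes (rows, by role) in the 22 comparisons (columns), coloured blue to red and stopped at 3 in either direction, with a dot where the adjusted p was under 0.05. The columns of Ume6 depletion, in growth and in SPM, are mostly pale with few dots, the tether columns and the UME6 column at 6 h hold both colours with ATG8 red and ATG19 blue, and the B112 course is mostly blue.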

How the data were processed

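RNA-seq libraries of SK1 yeast were prepared by the study with a strand-specific kit. The deposited estimated counts were made by the authors with kallisto, per transcript and not normalised, and the deposited TPM (transcripts per unit of all transcripts, scaled for length) were made by the authors in the same step. The submitters' processing notes also name HISAT2, SAMtools and StringTie, and versions are not given in the sources used here. Each experiment has its own table, and no value column was left without a sample.

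Estimated counts were rounded, filtered with filterByExpr, scaled with TMM factors and fitted per experiment, over all its groups without a block, with the quasi-likelihood test of edgeR 4.0.16 (R 4.3.3). P-values were adjusted by Benjamini-Hochberg over all genes tested and called at 0.05. Each comparison was of 3 against 3 libraries, except the difference in change between the untethered Ime1 and UME6 strains, which rests on 12. The depth per library is given in the report. Data with 200 changed genes were simulated from 4 of the comparisons and fitted with only the groups compared, not with the fit over all groups. Of genes changed by a log2FC of 1, this recovered 92% for ume6Δ against WT and 100% for Ume6 depletion in SPM at 2 h. It recovered 98% for the UME6 strain at 6 h against 0 h and 75% for sfGFP-B112 against B112 at 2 h. Of genes changed by 0.5 it recovered 44%, 45%, 62% and 12% in the same order. False calls were 17 of 153, 10 of 155, 11 of 171 and 2 of 89 calls. Their share was above the threshold of 0.05 in all but the last.

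Alternatives were relative log expression size factors, total counts without TMM factors, no filter, only the groups compared, the replicate number as a block, DESeq2 1.42.0, limma 3.58.1 on log2(TPM + 1), and each library left out in turn. A fit without the shallowest library, and leaving libraries out of the growth and starvation sets, were added after seeing the data. Growth and starvation come from separate tables and were compared as deposited TPM without a test, by whether the libraries overlap.

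The genes named in each comparison were up to 5 called ATG genes with the largest positive and up to 3 with the largest negative log2FC, and ATG1, ATG8, ATG9 and ATG14 throughout; others are named for their place in a course or list. The lists were 12 outside machinery genes, 5 hydrolase and cargo genes, 5 early and 4 middle meiotic genes, 3 a-cell and 4 haploid genes. The ATG genes, roles and lists were chosen with earlier results of these data known. Rows of the 2 libraries whose counts and TPM were exchanged were not used.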

Additional observations from a re-analysis of the deposited data

Results flagged for a closer look

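The change from 0 to 6 h in SPM was tested for a difference between strains, as the log2 change in the untethered Ime1 strain (IME1 with UME6(T99N)-3V5-aGFP) minus that in the UME6 strain, by edgeR's quasi-likelihood test with Benjamini-Hochberg adjustment. It was positive for 13 of 35 ATG genes and negative for 12, beside 37.6% and 31.9% of all genes, and the 11 values given here are of genes named mostly because they were called with large values. The UME6 strain also lacks the 3V5 tag and the nanobody, so these cannot be told apart from the T99N change in this contrast, and at 6 h IME1; UME6-3V5 had 97.9 to 111 TPM of ATG40 and 1122 to 1222 TPM of ATG8. The difference was negative for ATG40 (-3.09), ATG4 (-2.71), ATG32 (-2.58), ATG8 (-2.20), ATG1 (-1.28) and ATG14 (-1.12). It was positive for ATG19 (2.32), ATG36 (1.96), ATG15 (1.84), ATG34 (1.35) and ATG31 (1.27). ATG15 was at 145, 164 and 152 TPM at 6 h in the untethered Ime1 strain and at 48.5, 46.0 and 44.1 TPM in the UME6 strain, and ATG36 was at 109, 104 and 115 TPM in the untethered Ime1 strain and at 22.5, 20.6 and 21.5 TPM in the UME6 strain. The middle meiotic genes summed to 34.2 to 66.7 TPM at 6 h in the untethered Ime1 strain and to 18785 to 19169 TPM in the UME6 strain, and their part in these differences was not tested.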

How the results depend on the processing

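Of 207 gene values named by the rule, none reversed under any alternative run, and of 2840 refitted values 2743 stayed on the same side of the threshold, 82 lost a call and 15 gained one. The number of ATG genes called at 15 min of mitotic Ume6 depletion was 11 with total counts and 16 with only the groups compared, against 5. With only the groups compared it was 1 at 120 min of mitotic depletion and 0 at 2 h of depletion in SPM, where fewer libraries entered the fit. By limma on TPM it was 1 at 2.5 h and 2 at 6 h of depletion in SPM, and 33 for sfGFP-IME1 against IME1 at 6 h, on a scale where the median of all genes was -0.80. Leaving out 1 library at a time gave 2 to 5 calls at 15 min and 1 to 3 at 120 min of mitotic depletion, 0 to 3 at 2 h, 0 to 3 at 2.5 h and 3 to 5 at 6 h of depletion in SPM. It gave 17 to 20 for ume6Δ against WT and 12 to 32 over the other comparisons with calls, each within 1.5 times its count. It gave 28 to 29, 24 to 26, 26 to 27 and 27 to 28 ATG genes above growth in the 4 starvation sets. With the replicate number as a block (replicate block) no named gene changed its call and the count at 15 min was 6. In 0 of 21 comparisons of 2 groups did every same-numbered pair correlate above 0.1, and in 0 of 21 was every library closest to its own number. Single pairs did, such as the first replicates at 2 h and 0 h in the UME6 strain (r = 0.358). Whether same-numbered libraries share a culture cannot be told from this. In the simulated data 12% to 62% of changes of 0.5 in log2FC were recovered over the 4 comparisons simulated. Those data were fitted with only the groups compared, so the rates do not give what the fit over all groups could detect.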

Other observations

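The other strains of the rescue experiment are in no comparison of the report. At 6 h in SPM ATG8 was at 850, 1005 and 838 TPM in IME1; UME6(T99N)-3V5 and at 1222, 1122 and 1165 TPM in IME1; UME6-3V5, against 1634, 1710 and 1685 TPM with untagged UME6 and 413, 441 and 400 TPM in the untethered Ime1 strain. With IME1, every ATG8 library of the T99N allele without the nanobody stood above those of the allele with it. ATG1 was at 236, 239 and 194 TPM in IME1; UME6(T99N)-3V5, against 128, 131 and 138 TPM in the untethered Ime1 strain. ATG40 was at 103, 111 and 97.9 TPM in IME1; UME6-3V5 and at 561, 571 and 530 TPM with untagged UME6, and with sfGFP-IME1 at 105, 106 and 90.8 TPM beside UME6-3V5 and 375, 351 and 552 TPM beside untagged UME6. In both IME1 backgrounds the ATG40 libraries with the 3V5 tag lay below all those with untagged UME6. These differences were not tested.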
